A study of Rattus norvegicus with 27 samples.

Results

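The genes described here are the kinesin, dynein and dynactin genes, the motors that walk along microtubules and their activating complex. They were taken by name alone, as every gene whose symbol on the array's platform annotation starts with Kif, Klc, Dync, Dynl or Dctn. Probe sets listed with exactly 1 symbol were used, and the brightest over all arrays stood for its gene. This gave 43 of the 9769 genes with such a probe set: 24 kinesin genes and kinesin partners, 14 dynein genes and 5 dynactin genes, on 54 probe sets in all. Kif1b, Dynll1 and Dctn3 were listed only on probe sets with several symbols, Kif1a had no probe set in the annotation used, and none of these 4 has a value below.

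The samples were tail motor neurons of adult male Wistar rats, filled with the retrograde tracer Fluorogold from the tail 5 to 7 days before the tissue was taken. In the transected groups the cord was cut at S2 and a short piece of it was removed, and in the sham groups the vertebrae were opened with the dura left whole. Fluorescent neurons were cut by laser from frozen sections of 10 µm, RNA from about 50 to 200 cells a sample (100 to 200 by the sample labels) went through 2 rounds of amplification, and each sample was hybridised to 1 Affymetrix Rat 230 2.0 array. There were 8 arrays from transected rats at 21 days (Spi-21), 6 from sham rats at 21 days (ShamC-21), 8 from transected rats at 60 days (Spi-60) and 5 from sham rats at 60 days (ShamC-60). All 4 groups carried the tracer, and every animal had the vertebrae opened. The labels call the samples biological replicates but do not tie them to animals, and each p-value is measured against the scatter among arrays alone, which may be partly technical. In dissected cells, fewer neurons and less RNA per neuron cannot be told apart. Values are RMA signals on the log2 scale, on which a difference of 1 is a 2-fold change, and the probe sets of different genes are not on one scale, so levels are compared only within a gene.

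A motor neuron sends proteins and organelles down an axon many times longer than its cell body. Some kinesins move cargo outward along the axon. The main carriers are kinesin-1 (Kif5a, Kif5b and Kif5c with the Klc light chains), kinesin-2 (Kif3a, Kif3c and Kifap3) and kinesin-3 (Kif1). Cytoplasmic dynein, dynein-1, brings endosomes, signalling complexes and worn organelles back. It moves far only when joined to dynactin, whose large subunit Dctn1 binds microtubules and the dynein intermediate chains and whose pointed end, with Dctn4, Dctn5 and Dctn6, meets membranes and adaptor proteins. Dynein-2 works inside cilia. Mutations of DCTN1, DYNC1H1 and KIF5A cause motor neuron and axon disease in people.

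The arrays were close in overall level, with medians from 6.31 to 6.41. Mean signal of the 14 motor neuron markers with a probe set lay between 9.91 and 10.45 on 26 arrays and at 8.63 on ShamC-60 replicate 4, so the 60-day calls are also given without that array. Chat and Mnx1 had no usable probe set, and the means of Isl1, Isl2 and Chrna4 lay below the array medians in all 4 groups. The mean of 9 astrocyte markers ran from 7.78 to 8.91 in ShamC-21, 8.30 to 9.06 in Spi-21, 8.33 to 9.44 in ShamC-60 and 8.65 to 9.41 in Spi-60. At 21 days, with all arrays, 2 of the 14 motor neuron, 3 of 9 astrocyte, 2 of 10 oligodendrocyte and 3 of 11 microglial markers passed as higher. None of these markers passed as lower, and of all probe sets 11.3% were higher and 11.2% lower. The higher markers included Aldoc (0.92), Gfap (1.07), Mbp (1.08) and C1qb (0.61). At 60 days 5 motor neuron markers were higher, led by Slc18a3 (1.48) and Uchl1 (1.01), with 1 marker higher in each glial list (Aldoc 1.38, Mag 0.70, C1qb 0.48) and the blood marker Hbb lower (-1.38). Of all probe sets 10.2% were higher and 8.92% lower on that day. Without ShamC-60 replicate 4 the 60-day motor neuron markers were 3 higher and 1 lower, and 2 astrocyte, 0 oligodendrocyte and 0 microglial markers were higher. At 21 days without it, 2 motor neuron markers were higher and 4 lower: Calca (-0.86), Calcb (-0.84), Ret (-0.78) and Nefl (-0.32). The shares of all probe sets that passed were then 24.6% at 21 days and 11.9% at 60 days. The part of these shifts in single motor genes was not tested beyond a covariate. That covariate was the mean of the astrocyte, oligodendrocyte and microglial markers. With it, 2 motor genes were higher and 7 lower at 21 days, and 6 higher and 5 lower at 60 days. The share of all probe sets that passed in that fit is not given, so these counts are not set beside it. The difference between the actin control's 3′ and 5′ probe sets, a sign of RNA integrity and amplification, was 1.97 to 2.65 in ShamC-21 against 2.86 to 3.60 in Spi-21, and 1.92 to 2.42 in ShamC-60 against 2.76 to 3.77 in Spi-60. It did not overlap between transected and sham arrays on either day, and its part in the results below was not tested.

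Transection was followed by changes of moderate size in a minority of the motor genes, in both directions. In limma's fit across all 12913 probe sets, with Benjamini-Hochberg adjustment over all of them and a threshold of 0.05, 7 of the 43 genes changed at 21 days, 2 higher and 5 lower, which is 16.3% against 22.6% of all probe sets (11.3% higher and 11.2% lower). At 60 days 11 changed, 6 higher and 5 lower, which is 25.6% against 19.1% of all probe sets (10.2% higher and 8.92% lower). The members' median difference was -0.033 at 21 days and -0.001 at 60 days, beside 0.014 and 0.022 over all probe sets. No member passed the threshold with a change of 2-fold or more on either day. Dctn1 and Dctn6 rose on both days and Dctn5, Dync1i2 and Kif16b fell on both days, which is 2 higher and 3 lower genes against a background of 5.05% and 5.14% of probe sets. Kif2a and Kif20b passed at 21 days alone, and Dctn2, Dync1h1, Dync1li1, Dynll2, Dynlt2b and Dync2li1 at 60 days alone. The remaining 30 genes passed on neither day. At 60 days the lower genes were 3 without Spi-60 replicate 1 or ShamC-60 replicate 1 and 2 without ShamC-60 replicate 4.

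**Figure D1:**
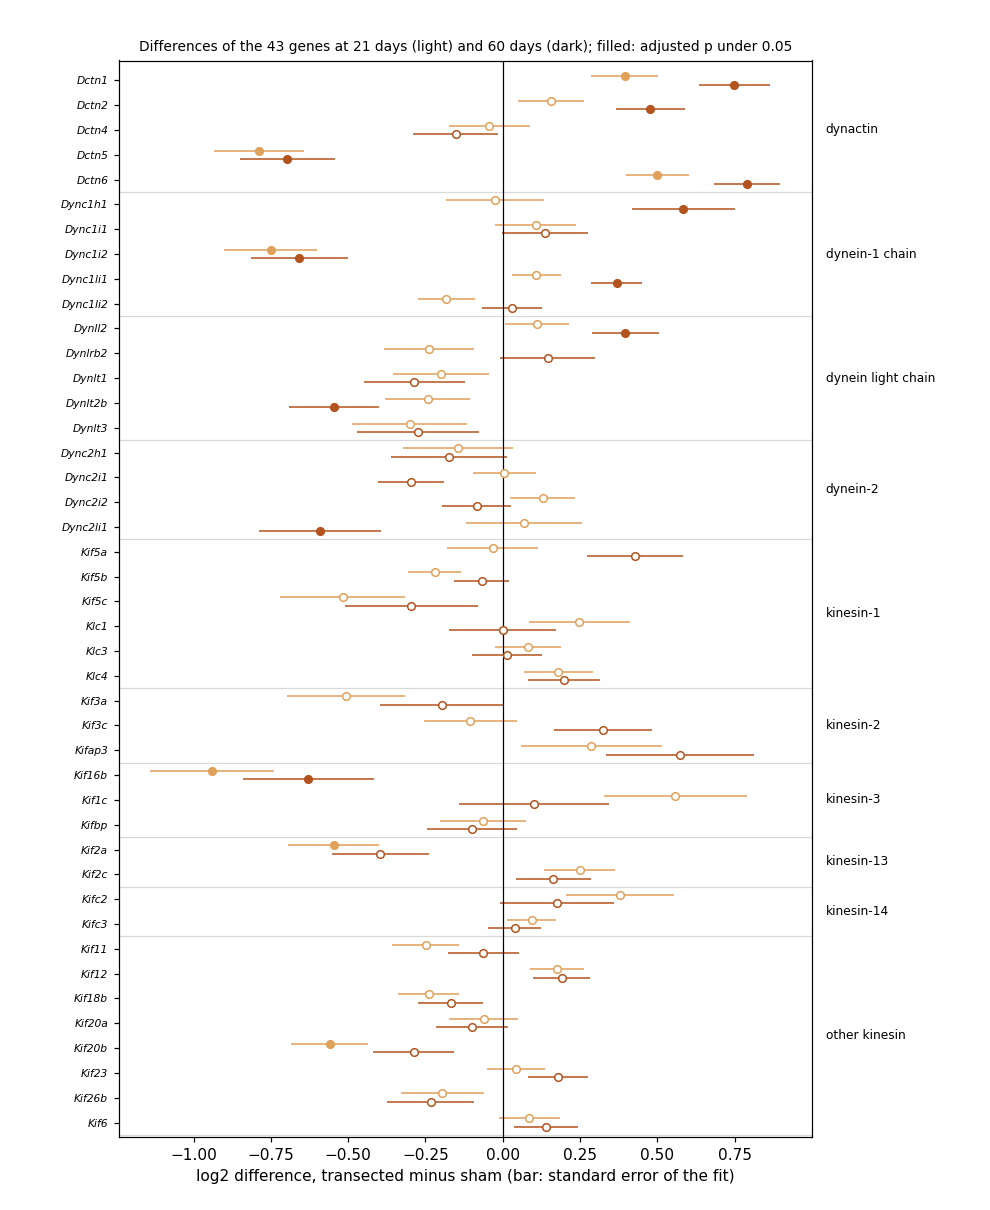
Log2 difference between transected and sham arrays for each of the 43 genes at 21 and 60 days, grouped by role, with bars for 1 standard error of limma's fit and filled points for adjusted p under 0.05. Dctn1 and Dctn6 lie above 0 and Dctn5 and Dync1i2 below 0 on both days, and no kinesin passes as higher on either day in this fit.

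Of the 5 measured dynactin genes, 3 passed at 21 days and 4 at 60 days, beside 22.6% and 19.1% of all probe sets, and those that passed had both signs. Dctn1, the large subunit that grips the microtubule, gave signals from 11.04 to 11.24 with a median of 11.19 in ShamC-21 and from 11.37 to 11.72 with a median of 11.55 in Spi-21. At 60 days its 5 sham arrays, in order of replicate, read 11.07, 11.10, 11.36, 10.49 and 11.23, and the transected arrays ran from 11.40 to 12.13 with a median of 11.82. All 8 transected arrays lay above every sham array on both days. The difference was 0.39 ± 0.109 (SE, 8 against 6 arrays, adjusted p = 0.0113 in limma's fit) at 21 days and 0.75 ± 0.115 (8 against 5 arrays, adjusted p = 6.4e-05) at 60 days, a fold of 1.31 and 1.68.

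Dctn6, a subunit of the pointed-end complex, rose with it. Its signal ran from 10.47 to 11.03 with a median of 10.78 in ShamC-21 and from 11.11 to 11.45 with a median of 11.24 in Spi-21, and again all 8 transected arrays were above every sham array. The 60-day sham arrays read 10.71, 10.68, 10.73, 10.45 and 10.68, against values from 11.16 to 11.65 with a median of 11.55 in Spi-60, with no overlap. The differences were 0.50 ± 0.102 (SE, adjusted p = 0.0013 in limma's fit) and 0.79 ± 0.108 (adjusted p = 1.6e-05).

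Dctn5, the other small pointed-end subunit measured, fell on both days. In ShamC-21 it lay from 8.94 to 9.53 with a median of 9.20 and in Spi-21 from 7.84 to 8.81 with a median of 8.46. The ShamC-60 arrays read 9.23, 9.04, 9.21, 9.08 and 8.81, and the Spi-60 arrays lay from 7.85 to 8.78 with a median of 8.47. Every transected array was below every sham array of its day. Dctn5 fell by 0.79 ± 0.146 (SE, adjusted p = 0.000577 in limma's fit) at 21 days and by 0.70 ± 0.154 (adjusted p = 0.00262) at 60 days. Dctn5 and Dctn6, both pointed-end subunits, thus had differences of opposite sign on both days.

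Dctn2, or dynamitin, which holds Dctn1's arm to the rest of the complex, passed only at 60 days. Its 60-day sham arrays read 8.35, 8.47, 8.62, 7.73 and 8.53, and its transected arrays ran from 8.54 to 9.07 with a median of 8.83. Replicate 4 was the lowest of the sham arrays, and 7 of 8 transected arrays were above all of them. The difference was 0.48 ± 0.112 (adjusted p = 0.00408) at 60 days and 0.16 (adjusted p = 0.298) at 21 days, when 5 of 8 transected arrays were above every sham array. Dctn4, also of the pointed end, differed by -0.04 (adjusted p = 0.839) and -0.15 (adjusted p = 0.462). Of the 43 genes, those with no overlap between the groups at 21 days were Dctn1 and Dctn6 among the higher ones and Dctn5, Dync1i2 and Kif16b among the lower, beside 3.07% and 2.22% of all probe sets. At 60 days they were Dctn1, Dctn6 and Dync1li1 higher and Dctn5 and Dync2li1 lower, beside 4.78% and 3.42%.

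**Figure D2:**
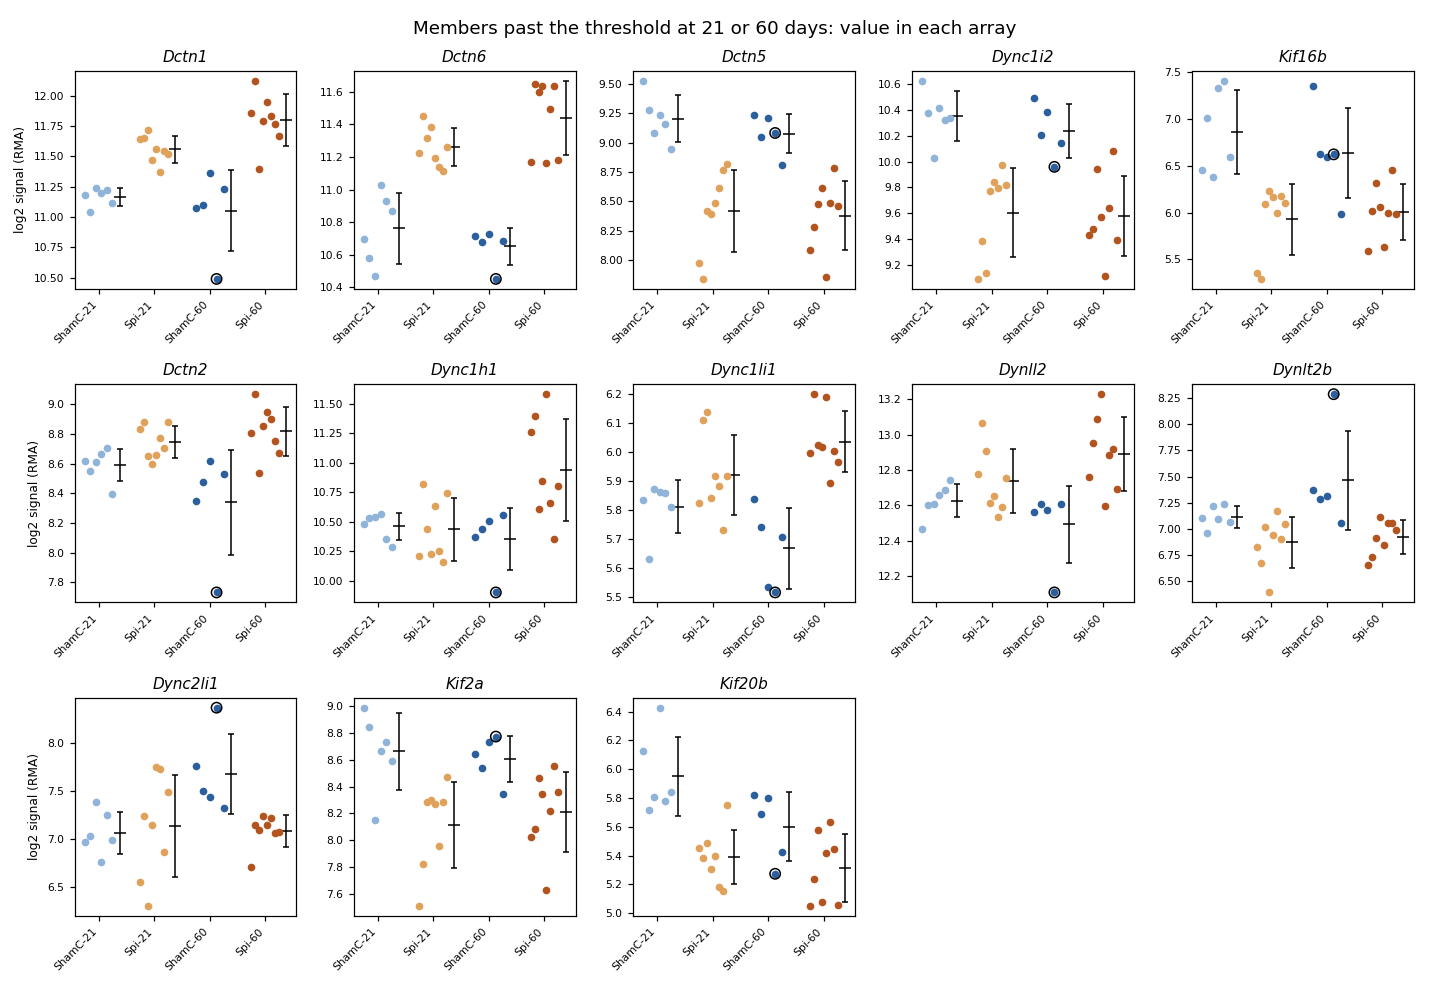
Log2 signal of every array for the members that passed the threshold on at least 1 day, in the 4 groups, with each group's mean and SD beside its points and ShamC-60 replicate 4 ringed. The Dctn1 and Dctn6 panels show the transected arrays above all sham arrays on both days, and the Dctn5 panel shows them below.

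Of the 5 dynein-1 chains, 1 passed as lower at 21 days (20%). At 60 days 2 passed as higher and 1 as lower (60%). The shares of all probe sets that passed were 22.6% and 19.1%. Dync1i2, an intermediate chain through which dynein binds Dctn1, was the single dynein gene to pass on both days, and it fell. Signals ran from 10.03 to 10.63 with a median of 10.36 in ShamC-21 and from 9.09 to 9.97 with a median of 9.78 in Spi-21, without overlap. At 60 days the sham arrays read 10.49, 10.21, 10.39, 9.96 and 10.14 and the transected arrays ran from 9.11 to 10.08 with a median of 9.53, so that 7 of 8 lay below every sham array. The gene fell by 0.75 ± 0.149 (SE, adjusted p = 0.00102 in limma's fit) and by 0.66 ± 0.158 (adjusted p = 0.00471). Dync1i1, the intermediate chain found mainly in neurons, differed by 0.11 (adjusted p = 0.584) and 0.14 (adjusted p = 0.515).

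Dync1h1, the heavy chain that carries the motor's ATPase, passed at 60 days alone. The sham arrays of that day read 10.37, 10.44, 10.50, 9.90 and 10.56, and the transected arrays ran from 10.35 to 11.58 with a median of 10.82, 7 of 8 above every sham array. Its difference was 0.58 ± 0.166 (SE, adjusted p = 0.0151 in limma's fit), beside -0.02 (adjusted p = 0.928) at 21 days, when signals ran from 10.28 to 10.57 with a median of 10.50 in ShamC-21 and from 10.16 to 10.82 with a median of 10.35 in Spi-21. The sham range of that day lies within the transected one. Dync1li1, a light intermediate chain that holds cargo adaptors, had signals below the array medians throughout. Its ShamC-60 arrays read 5.84, 5.74, 5.54, 5.52 and 5.71, and its Spi-60 arrays ran from 5.89 to 6.20 with a median of 6.01, all above the sham arrays. The difference was 0.37 ± 0.0821 (adjusted p = 0.00268) at 60 days and 0.11 (adjusted p = 0.322) at 21 days. Its partner Dync1li2 differed by -0.18 (adjusted p = 0.148) and 0.03 (adjusted p = 0.858).

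Among the 5 light chains with a value, none passed at 21 days, and 1 rose and 1 fell at 60 days, beside 22.6% and 19.1% of all probe sets. Dynll2, a light chain that dynein shares with myosin V and other partners, read 12.56, 12.61, 12.57, 12.11 and 12.61 in ShamC-60 and ran from 12.59 to 13.23 with a median of 12.90 in Spi-60. Here replicate 4 lay below the other 4 sham arrays, which spanned 12.56 to 12.61. The difference was 0.40 ± 0.108 (SE, adjusted p = 0.0117 in limma's fit) at 60 days and 0.11 (adjusted p = 0.463) at 21 days. A second Dynll2 probe set gave 0.55 (adjusted p = 0.0255) and 0.23 (adjusted p = 0.315), and at 60 days without replicate 4 it gave 0.33 (adjusted p = 0.146). Dynlt2b, a light chain of dynein-2, read 7.37, 7.29, 7.32, 8.29 and 7.05 in ShamC-60, where replicate 4 stood highest, and ran from 6.66 to 7.11 with a median of 6.95 in Spi-60. It fell by 0.55 ± 0.146 (adjusted p = 0.0101) at 60 days and differed by -0.24 (adjusted p = 0.204) at 21 days.

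Of the 4 other genes of dynein-2, the motor of cilia, none passed at 21 days and Dync2li1 alone passed at 60 days, beside 22.6% and 19.1% of all probe sets. Its 60-day sham arrays read 7.76, 7.50, 7.44, 8.37 and 7.32 and its transected arrays ran from 6.71 to 7.24 with a median of 7.12, all below the sham arrays. This light intermediate chain fell by 0.59 ± 0.199 (SE, adjusted p = 0.036 in limma's fit), with 0.07 (adjusted p = 0.827) at 21 days. The 60-day fall missed the threshold without Spi-60 replicate 1 (-0.54, adjusted p = 0.0707), without ShamC-60 replicate 1 (-0.57, adjusted p = 0.0815) or without ShamC-60 replicate 4 (-0.42, adjusted p = 0.167), and with a second quantile normalization (-0.53, adjusted p = 0.0566). At 21 days its transected arrays were spread from 6.30 to 7.76 with a median of 7.19, wider than the sham range of 6.77 to 7.38. Dync2i1, an intermediate chain, was below every sham array on 7 of 8 arrays at 60 days, with a difference of -0.30 that missed the threshold (adjusted p = 0.0522) and passed with array weights (-0.31, adjusted p = 0.0141). Without ShamC-60 replicate 4 it was -0.30 (adjusted p = 0.0964).

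Of the 24 kinesin genes, 3 fell at 21 days (Kif2a, Kif16b and Kif20b) and 1 at 60 days (Kif16b), which is 12.5% and 4.17%, near or under the 11.2% and 8.92% of all probe sets that were lower. None passed as higher on a single day in this fit, beside 11.3% and 10.2% of all probe sets, and the direction itself was not tested. A further 8 kinesins at 21 days and 6 at 60 days had an unadjusted p under 0.05 and missed the adjusted threshold. The share of all probe sets with such an unadjusted p is not given, here or for the later counts of this kind. Under other scalings 2 rises passed: Kif5a at 60 days with each array centred on its median (0.43, adjusted p = 0.0469) and Kif1c at 21 days with a second quantile normalization (0.64, adjusted p = 0.0427). Other alternatives also gave rises: Klc1 at 21 days with averaged probe sets (0.28, adjusted p = 0.0452) and Kif12 at 21 days without Spi-21 replicates 5 to 8 (0.30, adjusted p = 0.0246). In the reported fit none of the 6 kinesin-1 genes, the main motors of fast transport down the axon, passed on either day. Kif5a, the heavy chain confined mostly to neurons, ran 6.15 to 6.86 in ShamC-21 and 6.07 to 7.00 in Spi-21, a difference of -0.03 (adjusted p = 0.896). At 60 days its sham arrays read 6.23, 6.34, 6.59, 5.66 and 6.23, against values from 6.32 to 7.04 with a median of 6.60 in Spi-60, a difference of 0.43 ± 0.155 (SE, adjusted p = 0.0517 in limma's fit). That rise passed without ShamC-60 replicate 3 (0.52, adjusted p = 0.0273) and was 0.29 (adjusted p = 0.22) without ShamC-60 replicate 4. The heavy chain of all tissues, Kif5b, differed by -0.22 ± 0.0849 (adjusted p = 0.06) at 21 days, which passed with a second quantile normalization (-0.24, adjusted p = 0.0396), and -0.07 (adjusted p = 0.63) at 60 days. Kif5b was dim, with a mean signal of 6.119, below the median of 6.35 over all probe sets.

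Kif5c, a heavy chain enriched in motor neurons, lay from 8.94 to 9.74 with a median of 9.60 in ShamC-21 and from 8.23 to 9.55 with a median of 8.90 in Spi-21. Its ShamC-60 arrays read 9.20, 9.25, 8.88, 7.95 and 9.33, with replicate 4 the lowest, and its Spi-60 arrays ran from 8.18 to 8.97 with a median of 8.62. The differences were -0.52 ± 0.203 (SE, adjusted p = 0.0649 in limma's fit) and -0.30 (adjusted p = 0.348). Klc1, a cargo-binding light chain, differed by 0.25 (adjusted p = 0.281) and by less than 0.01 (adjusted p = 0.998), and its 60-day sham arrays were spread from 6.91 to 7.87.

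Kif16b, a kinesin-3 that moves early endosomes, had the largest fall of any member at 21 days. Signals ran from 6.38 to 7.41 with a median of 6.80 in ShamC-21 and from 5.29 to 6.23 with a median of 6.10 in Spi-21, with no overlap. It fell by 0.94 ± 0.2 (SE, adjusted p = 0.00189 in limma's fit), a fold of 1.92. At 60 days the sham arrays read 7.35, 6.62, 6.59, 6.62 and 5.99, the transected arrays ran from 5.59 to 6.46 with a median of 6.01, and the groups overlapped. The 60-day fall was 0.63 ± 0.212 (adjusted p = 0.0363), and it missed the threshold when any of 7 arrays was left out (Spi-60 replicates 1, 2 and 5 and ShamC-60 replicates 1 to 4), at most without ShamC-60 replicate 1 (-0.45, adjusted p = 0.16). With the gene's probe sets averaged it was -0.25 (adjusted p = 0.0809). Kif1c, a kinesin-3 of vesicle transport, was 0.56 higher at 21 days without passing (adjusted p = 0.0794) and 0.10 higher at 60 days (adjusted p = 0.804).

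Kif2a, a kinesin-13 that takes microtubules apart from their ends, ran from 8.15 to 8.99 with a median of 8.70 in ShamC-21 and from 7.51 to 8.47 with a median of 8.28 in Spi-21. The ranges overlapped, with all 8 transected arrays below the sham mean. The fall was 0.55 ± 0.149 (SE, adjusted p = 0.0102 in limma's fit), and the 60-day difference was -0.40 ± 0.157 (adjusted p = 0.0739). Kif20b, a kinesin of cytokinesis, ran from 5.71 to 6.43 with a median of 5.83 in ShamC-21 and from 5.16 to 5.75 with a median of 5.39 in Spi-21, and 7 of 8 transected arrays were below every sham array. It fell by 0.56 ± 0.125 (adjusted p = 0.00271) and differed by -0.29 (adjusted p = 0.124) at 60 days. Its signals lay near or below the array medians, as did those of Kif16b in the transected groups. Kif20b was the 1 of 6 kinesins of cell division that passed at 21 days, and none of the 6 passed at 60 days, beside 22.6% and 19.1% of all probe sets. In limma's fit 4 of the 6 had an unadjusted p under 0.05 at 21 days, and 1 did at 60 days. At 21 days Kif20b, Kif11 and Kif18b were lower and Kif2c higher. Of 7 measured proliferation markers, 1 passed as lower on each day, beside 11.2% and 8.92% of all probe sets, and 0 as higher. In the average of the days 4 of them were lower, beside 19%. Without ShamC-60 replicate 4, 0 of them passed at 60 days.

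The kinesin-2 genes passed on neither day. Kif3a, a motor subunit, ran from 7.44 to 8.18 with a median of 7.97 in ShamC-21 and from 6.19 to 8.04 with a median of 7.53 in Spi-21, the lowest array lying far under the rest. Its differences were -0.51 ± 0.19 (SE, adjusted p = 0.0535 in limma's fit) and -0.20 (adjusted p = 0.515). Kifap3, the accessory subunit that joins cargo to the motor pair, differed by 0.29 (adjusted p = 0.376) and by 0.57 ± 0.239 (adjusted p = 0.0913), and its ShamC-60 arrays read 7.74, 8.34, 7.72, 6.48 and 8.41. The 22 members that passed in none of the comparisons and were not among the transport genes described in any case (Dync1i1, Dync1li2, Dctn4, Dync2i1, Kif1c, Kif3c, Dynlt1 and Dynlt3 among them) lay between -0.30 (Dynlt3) and 0.56 (Kif1c) at 21 days and between -0.30 (Dync2i1) and 0.32 (Kif3c) at 60 days. The others are Dynlrb2, Dync2h1, Dync2i2, Klc3, Klc4, Kifbp, Kif2c, Kifc2, Kifc3, Kif11, Kif20a, Kif23, Kif26b and Kif6.

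The promoters of the genes that changed on both days are shown because these 5 are the members whose direction was called at 21 and at 60 days. RefSeq promoters of rat build GRCr8, 250 bases before and 50 after the start, were at hand for Dctn1, Dctn5, Dync1i2 and Kif16b, and Dctn6 was not among them. Capitals mark matches, on either strand, to 6 motifs: the GC box GGGCGG, the CCAAT box CCAAT, an ETS site CCGGAAGT, an NRF1 site (GCGC, any base, then TGCGC), a cyclic AMP element TGACGTCA and the TATA box TATAAA. No 2 matches overlapped. The sequences read 5′ to 3′ along the gene's own strand.

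Dctn1, chr4:117241473-117241772, plus strand: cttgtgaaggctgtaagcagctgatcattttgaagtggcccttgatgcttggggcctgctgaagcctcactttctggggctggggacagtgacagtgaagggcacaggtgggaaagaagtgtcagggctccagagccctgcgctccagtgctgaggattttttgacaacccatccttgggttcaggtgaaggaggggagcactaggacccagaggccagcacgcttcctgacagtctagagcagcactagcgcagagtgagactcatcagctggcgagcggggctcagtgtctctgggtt
Dctn5, chr1:186120165-186120464, plus strand: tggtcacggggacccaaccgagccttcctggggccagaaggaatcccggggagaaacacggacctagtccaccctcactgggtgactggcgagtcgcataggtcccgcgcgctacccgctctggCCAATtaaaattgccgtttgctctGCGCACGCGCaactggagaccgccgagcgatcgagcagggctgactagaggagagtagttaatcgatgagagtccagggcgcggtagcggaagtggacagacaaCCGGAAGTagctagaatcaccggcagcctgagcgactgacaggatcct
Dync1i2, chr3:76441371-76441670, plus strand: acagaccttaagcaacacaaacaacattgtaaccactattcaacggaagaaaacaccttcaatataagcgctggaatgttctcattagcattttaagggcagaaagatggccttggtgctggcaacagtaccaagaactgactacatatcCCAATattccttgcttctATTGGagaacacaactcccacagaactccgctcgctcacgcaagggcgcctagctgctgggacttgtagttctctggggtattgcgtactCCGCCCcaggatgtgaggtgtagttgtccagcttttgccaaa
Kif16b, chr3:150707536-150707835, minus strand: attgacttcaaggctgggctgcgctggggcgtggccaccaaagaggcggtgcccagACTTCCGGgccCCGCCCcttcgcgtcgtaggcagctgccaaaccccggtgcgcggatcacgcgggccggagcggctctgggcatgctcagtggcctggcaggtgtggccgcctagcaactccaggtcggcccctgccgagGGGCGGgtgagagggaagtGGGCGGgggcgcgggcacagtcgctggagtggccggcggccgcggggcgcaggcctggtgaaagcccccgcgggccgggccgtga

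The 4 promoters differ widely. Dctn1, which rose, has 57.3% G and C, 5 CpG pairs and no match to any of the 6 motifs. Among the genes that fell, Dctn5 has 60.7% G and C and 25 CpG pairs, with 1 CCAAT, 1 ETS and 1 NRF1 match. Dync1i2 has 47% G and C and 8 CpG pairs, with 2 CCAAT matches facing each other and 1 GC box. Kif16b has 74.3% G and C and 32 CpG pairs, with 3 GC boxes and 1 ETS match. The median of the table's 33469 promoters is 51.7% G and C. Of these promoters 33.1% hold the GC box, 37.5% CCAAT, 3.81% the ETS site, 4.25% the NRF1 site, 1.83% the cyclic AMP element and 14.2% the TATA box. No motif was shared by all 3 promoters of genes that fell. A match of letters is not a binding site, and the expression data do not bear on binding.

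Averaged over the 2 days, with all 27 arrays, 7 members were higher and 9 lower, which is 37.2% against 39.4% of all probe sets (20.4% higher and 19% lower). The average brought in 5 genes that had passed on neither day. Kif5c fell by 0.41 ± 0.148 (SE, adjusted p = 0.0303 in limma's fit) and Kif3a by 0.35 ± 0.138 (adjusted p = 0.0437). Kif18b, which acts on the spindle's outer microtubules in mitosis, fell by 0.20 ± 0.072 (adjusted p = 0.0256). Kifap3 was higher by 0.43 ± 0.165 (adjusted p = 0.0396) and Kif12 by 0.18 ± 0.0632 (adjusted p = 0.023). Kif18b and Kif12 were dim, with mean signals of 6.142 and 6.055, below the median of 6.35 over all probe sets. The 2 kinesin-2 subunits of this set, Kif3a and Kifap3, had opposite signs. These calls lay near the threshold: Kif3a missed it without any of 15 single arrays, Kifap3 of 13, Kif5c of 4 and Kif18b of 2. With a second quantile normalization Kif5c was -0.31 (adjusted p = 0.12), Kif3a -0.28 (adjusted p = 0.103) and Kif12 0.16 (adjusted p = 0.0523). Kifap3 was 0.27 (adjusted p = 0.112) without ShamC-60 replicate 4, when 15 members passed in the average, 14 of them the same genes, beside 35.9% of all probe sets.

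The difference between transected and sham arrays was then compared between the days. None of the 43 genes passed this test of the interaction in limma's fit, and 0% of all probe sets did, while 6 members had an unadjusted p under 0.05: Dctn1, Dctn2, Dync1h1, Dync1li1, Dync2li1 and Kif5a. A member that passed on 1 day alone is therefore not shown to differ between days. The widest gaps were those of Dync2li1, whose difference was lower at 60 than at 21 days by -0.66 ± 0.273 (adjusted p = 0.653), and Dync1h1, higher by 0.61 ± 0.229 (adjusted p = 0.647). Without ShamC-60 replicate 4 these were -0.49 and 0.49, and again no member passed. Between Spi-60 and Spi-21, 0 members passed in limma's fit and 0.0852% of probe sets did (0.0465% higher and 0.0387% lower), and 3 members had an unadjusted p under 0.05. Of these Dync1h1 was higher at 60 days by 0.50 ± 0.146 (adjusted p = 0.122), Dctn1 by 0.24 ± 0.101 (adjusted p = 0.3), and Dync2i1 differed by -0.20 (adjusted p = 0.353). Between the sham groups 0 members passed and 0% of probe sets did, and 6 members had an unadjusted p under 0.05. Dync2li1 was 0.61 ± 0.211 higher in ShamC-60 than in ShamC-21 (adjusted p = 0.999) and 0.44 higher without ShamC-60 replicate 4, while its Spi-60 mean differed from its Spi-21 mean by -0.05. These comparisons of days share arrays with the differences given above. The counts of unadjusted p-values here are not set beside a share of all probe sets.

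Leaving out ShamC-60 replicate 4 changed the 60-day result for 5 of the 11 members that had passed. In that fit 6 members passed, all of them among the 11: Dctn1, Dctn2 and Dctn6 and Dync1li1 higher, Dctn5 and Dync1i2 lower, while the share of all probe sets that passed went from 19.1% to 11.9%. Dctn1 was then 0.61 (adjusted p = 0.000292) and Dctn6 0.74 (adjusted p = 0.000137). Dctn5 was -0.69 (adjusted p = 0.00768) and Dync1i2 -0.73 (adjusted p = 0.00543). The dynactin and dynein-1 genes that changed on both days thus kept their calls without it.

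The 5 members that did not pass without the array all kept their sign. Dync1h1 went from 0.58 to 0.47 (adjusted p = 0.0709) and Dynll2 from 0.40 to 0.30 (adjusted p = 0.0654). Dynlt2b went from -0.55 to -0.34 (adjusted p = 0.0542) and Dync2li1 from -0.59 to -0.42 (adjusted p = 0.167). Kif16b stayed at -0.63 (adjusted p = 0.0711). Outside the called genes, Kif5c moved the other way, from -0.30 to -0.54 (adjusted p = 0.0709), and Kifap3 from 0.57 to 0.26 (adjusted p = 0.428). At 21 days 8 members (18.6%) passed in that fit, beside 24.6% of all probe sets: the 7 above and Kif5c, which fell (adjusted p = 0.0295). With ShamC-60 replicate 1 left out as well, Dctn2 also missed the threshold (0.28, adjusted p = 0.11).

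**Figure D3:**
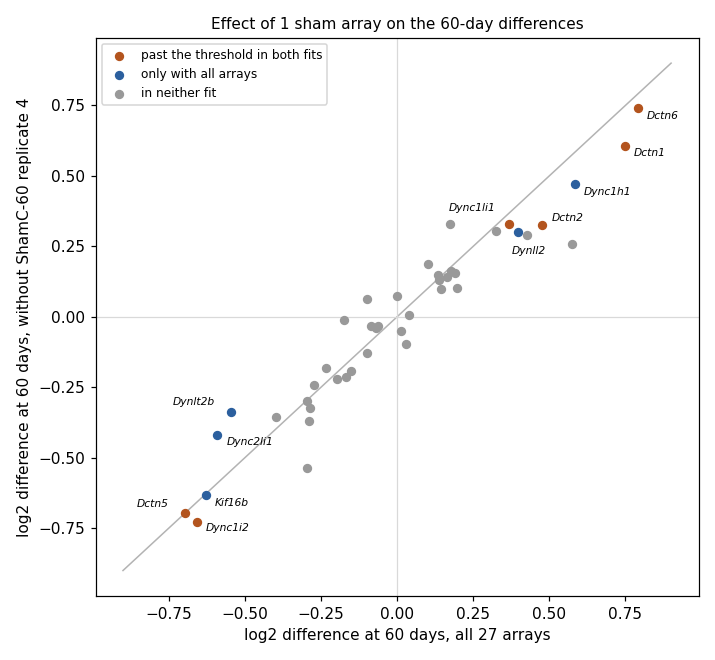
Log2 difference at 60 days with all 27 arrays (horizontal axis) against the difference without ShamC-60 replicate 4 (vertical axis), 1 point per gene, with the line of equal values. Dync1h1, Dynll2, Dynlt2b, Dync2li1 and Kif16b passed the threshold with all arrays alone, and the first 4 of them lie nearer to 0 without the array.

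The transected arrays of 21 days held 2 sets that differed in a control. In replicates 1 to 4 the GAPDH 3′ minus 5′ difference lay between 2.57 and 3.47. The other 4 replicates, 5 to 8, lay between 0.985 and 1.46, and the ShamC-21 arrays between 2.65 and 3.26. Some motor genes had ranges that did not overlap between these sets. The genes below are examples picked for that split, and the share of all probe sets that split so is not given. Dynlt1, a light chain, was 7.51 to 8.27 in the first set and 8.46 to 8.98 in the second, and Dctn5 was 7.84 to 8.42 and 8.49 to 8.81. Dync1i2 was 9.09 to 9.77 and 9.79 to 9.97, a narrow gap, and Dync1li2 was 11.92 to 12.05 and 12.16 to 12.22. Kif5c ran the opposite way, with 8.96 to 9.55 in the first set and 8.23 to 8.85 in the second. The part of the control difference in these values was not tested.

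With either set alone set against ShamC-21, Dctn5 and Dync1i2 stayed lower and past the threshold: Dctn5 was -1.05 with replicates 1 to 4 and -0.53 with replicates 5 to 8, and Dync1i2 -1.01 and -0.49. Kif3a was -0.89 (adjusted p = 0.00142) with replicates 1 to 4 and -0.12 (adjusted p = 0.633) with replicates 5 to 8, and Dynlt1 -0.56 (adjusted p = 0.00469) and 0.15 (adjusted p = 0.441). Dynlt3 was -0.62 (adjusted p = 0.021) and 0.02 (adjusted p = 0.964). Kif5c was -0.18 (adjusted p = 0.568) and -0.86 (adjusted p = 0.016). With replicates 5 to 8 alone, the 21-day differences of Dctn1 (0.33, adjusted p = 0.11) and Kif2a (-0.41, adjusted p = 0.0985) missed the threshold.

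**Figure D4:**
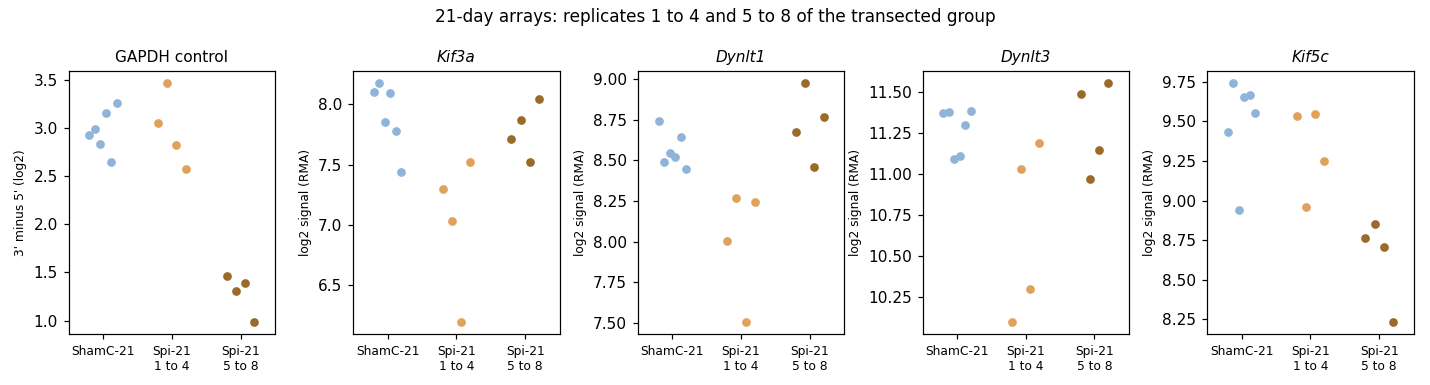
Arrays of 21 days, 1 point each, in ShamC-21, Spi-21 replicates 1 to 4 and Spi-21 replicates 5 to 8. The first panel shows the log2 difference of the GAPDH 3′ and 5′ controls and the others the log2 signal of Kif3a, Dynlt1, Dynlt3 and Kif5c; Dynlt1 is lower in replicates 1 to 4 (7.51 to 8.27) than in 5 to 8, and Kif5c higher (8.96 to 9.55).

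For 8 genes more than 1 probe set was at hand, and these did not always give the same result. Besides the brightest, Kif16b had 3 more: 1 fell by 0.86 at 21 days (adjusted p = 0.000888) and by 0.48 at 60 days (adjusted p = 0.0578), and the other 2 differed by 0.22 and -0.08 at 21 days and 0.08 and 0.02 at 60 days. Their mean signals were below the median of all probe sets. Kif2a had a second probe set that fell by 0.80 at 21 days (adjusted p = 0.00534) and differed by -0.52 at 60 days (adjusted p = 0.0794), and another at -0.13 and -0.06. A second Kif3a probe set gave 0.12 and -0.06, so the 2 differ in sign at 21 days. Dimmer probe sets of Kif3c and Klc3 were 0.27 (adjusted p = 0.0198) and 0.31 (adjusted p = 0.0131) higher at 21 days, although the brightest of each gene did not pass and that of Kif3c was -0.10. Klc1's second probe set was higher by 0.32 (adjusted p = 0.0627) and 0.29 (adjusted p = 0.113), and that of Kif11, the spindle motor, differed by -0.01 and -0.18. Which transcripts each probe set reads was not examined.

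**Figure D5:**
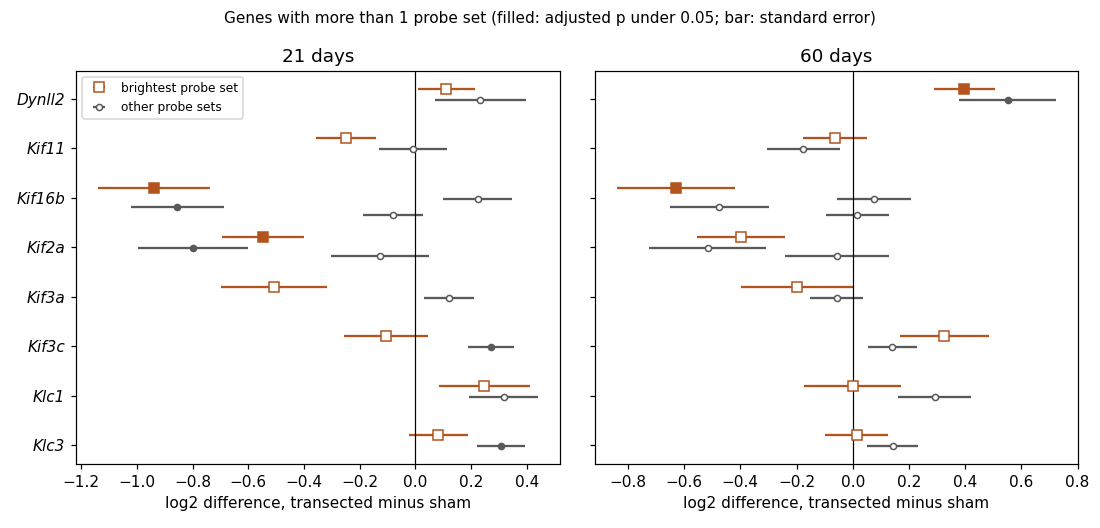
Log2 difference between transected and sham arrays at 21 and 60 days for each probe set of the 8 genes with more than 1, with the brightest marked apart and filled points for adjusted p under 0.05. The probe sets of Kif16b and Kif2a lie both near 0 and well below it.

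Genes that work with the motors were read from 2 further lists. Of 22 measured cargo adaptors and dynein regulators, 2 rose and 3 fell at 21 days and 2 rose and 3 fell at 60 days, which is 22.7% on each day, beside 22.6% and 19.1% of all probe sets. Bicd2, an adaptor that joins dynein and dynactin to cargo, fell by 0.72 (adjusted p = 4.6e-05 in limma's fit) and 0.54 (adjusted p = 0.00138). Mapk8ip1, a scaffold carried by kinesin-1, rose by 0.55 (adjusted p = 0.000647) and 0.90 (adjusted p = 2.4e-06). Among the other dynein adaptors, Rab11fip3 fell by 1.16 (adjusted p = 0.00012) and Hook3 by 0.93 (adjusted p = 0.00447) at 21 days, and Hook1 fell by 1.43 (adjusted p = 0.00374) at 60 days. Hook3's 21-day means, 3.934 in Spi-21 and 4.865 in ShamC-21, lay below the array medians. So did the Spi-21 mean of Rab11fip3 (6.255, against 7.417 in ShamC-21) and the Spi-60 mean of Hook1 (5.188, against 6.622 in ShamC-60). At 21 days Hap1 rose by 0.29 (adjusted p = 0.0493), and at 60 days Ndel1, a dynein regulator, rose by 0.47 (adjusted p = 0.00801) and Tor1a fell by 0.40 (adjusted p = 0.05, just under the threshold). Without ShamC-60 replicate 4, 2 adaptors rose and 2 fell at 60 days, beside 11.9% of all probe sets, and Tor1a (-0.33, adjusted p = 0.163) did not pass. In that fit 2 rose and 4 fell at 21 days, beside 24.6% of all probe sets. Hap1 (adjusted p = 0.0502) then missed the threshold, while Ndel1 (0.31, adjusted p = 0.0477) and Hook1 (-0.82, adjusted p = 0.0358) passed.

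Of 24 measured genes for proteins that bind or sever microtubules, 4 rose and 0 fell at 21 days, which is 16.7% against 22.6% of all probe sets, and 7 rose and 2 fell at 60 days, which is 37.5% against 19.1%. Map2, of dendrites, rose by 0.66 (adjusted p = 0.00952) and 0.55 (adjusted p = 0.0392), with means below the array medians in every group. Map1s rose by 0.62 on both days (adjusted p = 0.0018 and 0.00272). Mapre3, a plus-end binder of neurons, rose by 0.57 (adjusted p = 0.032) and 0.67 (adjusted p = 0.0219), and Camsap3, a minus-end binder, by 0.44 (adjusted p = 0.0142) and 0.61 (adjusted p = 0.00212). Clasp1, another plus-end binder, differed by 0.04 (adjusted p = 0.874) at 21 days and rose by 0.58 (adjusted p = 0.00639) at 60 days. Map1a and Map1b rose at 60 days by 0.71 (adjusted p = 0.00396) and 0.64 (adjusted p = 0.00329). The genes that fell at 60 days were Spast, the severing enzyme spastin, by 0.79 (adjusted p = 0.0199), and Map4 by 0.70 (adjusted p = 0.00118). Without ShamC-60 replicate 4, 5 rose and 2 fell at 60 days, beside 11.9% of all probe sets, and Map2 (0.51, adjusted p = 0.102) and Mapre3 (0.61, adjusted p = 0.0681) did not pass. In that fit 5 rose and 2 fell at 21 days, beside 24.6% of all probe sets. The 2 that fell were Clasp2 (-0.31, adjusted p = 0.0413) and Map4 (-0.36, adjusted p = 0.0448), and Map1b also rose (0.26, adjusted p = 0.0234).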

How the data were processed

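Expression was measured on 27 Affymetrix Rat 230 2.0 arrays, 1 per sample. The deposited table holds log2 signals, which the authors made with RMA per the submitters' processing notes; the sources used here give no version of it, and the log2 scale was read from the values, which run from 0 to 14.62. RMA fits each probe set over the arrays together and makes their distributions alike, so arrays are not independent of each other in level. The table has 12919 probe sets, of which 6 controls were left out; the platform annotation gives 11880 a single symbol, 320 several and 713 none. All 43 member symbols were in the RefSeq table and none was changed by it.

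limma 3.58.1 (R 4.3.3; lmFit and eBayes, defaults) was fitted to all 12913 probe sets and 4 groups together, with contrasts between transected and sham at 21 days, at 60 days, their average and their difference, and between days within each treatment. The Benjamini-Hochberg adjustment ran over every probe set of a contrast, with a threshold of 0.05. Probe sets were not filtered; 12 members lay below the median of mean signal, 6.35. The number of arrays limits the precision. Values by array were read with Python 3.11.15. The procedure was tested on simulated data. No array was identical to another, and correlations between arrays were 0.825 to 0.989.

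Described with their values are members past the threshold at either day, in the average or between days, and 10 transport genes whatever their result, of which Kif1a, Kif1b and Dynll1 had no single-symbol probe set. The members, lists and rules were chosen with earlier results of these data known. Alternatives were a second quantile normalization, median centring, a filter on dim probe sets, array weights, another prior, fits of the compared groups alone, a glial covariate, averaged probe sets, a replicate block and left-out arrays. Promoters came from RefSeq (GRCr8), with 36 of 43 members matched.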

Additional observations from a re-analysis of the deposited data

Results flagged for a closer look

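Of 84 sets of arrays, 21 described members in each of 4 groups, 7 held an array whose gap to its nearest neighbour was large for the group's range by Dixon's test, and chance gives about 1 in 20 such sets. Of these, 4 were ShamC-60 replicate 4, the array with the lowest motor neuron marker mean. On it Dctn6 read 10.451 (nearest array 10.678), Dynll2 12.107 (12.562), Dync1h1 9.9 (10.371) and Dynlt2b, there the highest, 8.289 (7.368). In ShamC-21 replicate 2, Dync1li1 was lowest at 5.633 (nearest 5.812) and Kifap3 highest at 8.979 (nearest 8.35). Dync2li1 was lowest in Spi-60 replicate 1, at 6.713 (nearest 7.064).

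Outside the comparisons lay 5 probe sets listed with a member's symbol among several. One of them, with 4 symbols and so not named, was higher after transection by 1.459 at 21 days (adjusted p = 6.5e-05 in limma's fit) and by 1.095 at 60 days (adjusted p = 0.00162), with all 8 transected arrays above every sham array on both days. The other 4 passed the threshold on neither day.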

How the results depend on the processing

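For the 21 described members alone, 597 values under the alternatives kept their direction and side of the threshold. Another 40 dropped below it, 31 rose past it and 18 changed sign. The remaining members are not in these counts, and some of them changed sign too. Dync1li2 at 60 days, for example, went from 0.03 to -0.095 without ShamC-60 replicate 4. Of those for counts of members, 165 were within 1.5 times the reported count and 11 were not. Without Spi-21 replicates 1 to 4, 1 member was higher at 21 days, 4 were higher in the average of the days, 1 was lower in the interaction (Dync2li1, -0.98, adjusted p = 0.0423) and 1 higher between the transected groups (Kif3c, 0.53, adjusted p = 0.0319). Without Spi-21 replicates 5 to 8, 8 were lower at 21 days. At 60 days 10 were lower with array weights and 2 without ShamC-60 replicate 4; without its replicates 1 and 4, 3 were higher and 2 lower. The cause of these shifts was not tested beyond the arrays left out. Of the fits in this section with arrays weighted or left out, only that without ShamC-60 replicate 4 has its share of all probe sets given (11.9% at 60 days). The other counts are not set beside such a share.

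Leaving out single arrays gave 2 to 3 higher and 5 to 7 lower members at 21 days, 4 to 7 and 2 to 7 at 60 days, and 6 to 11 and 6 to 11 in the average, where the 11 higher members came without Spi-21 replicate 4. Among the described members, signs changed only for 4 differences near 0, none past the threshold. Dync1h1 at 21 days became 0.0408 with quantile normalization, 0.0407 with the glial covariate, 0.0175 with array weights and 0.0325 with the replicate block, and ran from -0.0801 to 0.0149 without single arrays. Dync2li1 at 21 days became -0.256 without Spi-21 replicates 5 to 8 and ran from -0.021 to 0.1865 without single arrays. Kif5a at 21 days became 0.0034 with quantile normalization and 0.152 without Spi-21 replicates 5 to 8, and ran from -0.1071 to 0.0361. Klc1 at 60 days became 0.0655 with quantile normalization, 0.0013 with median centring, 0.2423 with array weights, 0.0232 with the replicate block, 0.146 with averaged probe sets, 0.0751 without ShamC-60 replicate 4 and 0.3095 without its replicates 1 and 4, and ran from -0.0821 to 0.1563.

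The labels number the replicates in every group but say nothing of what they share: over 35 same-numbered pairs the deviations correlated at a median of -0.008 (range -0.309 to 0.331), and 2 of 27 arrays correlated best with their own number. With the replicate block, 2 members were higher and 6 lower at 21 days. The counts were 8 and 7 at 60 days and 9 and 9 in the average. The share of all probe sets that passed in that fit is not given, so these counts are not set beside it. At 60 days 2 kinesins were higher with the block, Kif5a (0.47, adjusted p = 0.0412) and Kif3c (0.40, adjusted p = 0.0473).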
